A study of Homo sapiens with 6 samples.

Results

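The genes described here are 42 genes of DNA replication that textbooks list among, or beside, the targets of E2F transcription factors. They comprise 4 origin licensing genes, 12 helicase genes, 7 polymerase genes, 8 genes of the sliding clamp and of strand joining, 4 genes of nucleotide supply and 7 genes of the fork and of chromatin assembly. They were chosen by name, through probe sets annotated to exactly 1 of them. All 42 had such a probe set, of 19775 genes that had one, and all 42 were tested, among 11658 genes tested. The samples were labelled as 3 p16 transfectants and 3 mock transfectants of Capan-1, a long-established line grown from a human pancreatic carcinoma, and each group was numbered V1, V2 and V3. Per the labels, in the p16 samples the full-length human p16INK4a cDNA sat in the vector pRC/CMV, whose viral CMV promoter is active in most cell types. Cells of both groups grew in RPMI medium with 15% fetal calf serum, and the labels give the selection of transfected cells as 0.1 mg/ml hygromycin plus 1 mg/ml G418. Levels were read on Affymetrix HG-U133 Plus 2.0 arrays, as log2 values after GCRMA normalization. The labels do not say what the mock vector held, whether the transfectants were pools or single clones, or whether V1, V2 and V3 were separate cultures.

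In the G1 phase of the cell cycle the pocket proteins, RB1 and its relatives, hold E2F factors at promoters of S-phase genes and keep those genes low. Cyclin-dependent kinases CDK4 and CDK6 with D-type cyclins phosphorylate RB1 and free E2F. The p16INK4a protein, encoded by CDKN2A, binds CDK4 and CDK6 and blocks that step, which in cells with working RB1 lowers E2F targets. The replication genes then act in order. Origin licensing proteins load the MCM helicase in G1, and CDC45 and GINS switch it on in S phase. The polymerases, held by the PCNA clamp, copy the strands, while ribonucleotide reductase and thymidylate enzymes supply the nucleotides.

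Promoters are shown for the called members with the largest difference in each direction, to let the letters be read beside the levels. RefSeq promoter sequence (GRCh38.p14, 250 bases before to 50 bases after the annotated start, on the strand of the gene) was listed for 36 of the 42 genes, with 45 promoters in all. Capitals mark an E2F-type 8-mer, which was searched as TTTCCCGC or TTTCGCGC or TTTGCCGC or TTTGGCGC on both strands, overlaps counted. The first 3 belong to genes that were higher in p16 samples, and the last 2 to genes that were lower.
GINS1 chr20:25407423-25407722 (+ strand): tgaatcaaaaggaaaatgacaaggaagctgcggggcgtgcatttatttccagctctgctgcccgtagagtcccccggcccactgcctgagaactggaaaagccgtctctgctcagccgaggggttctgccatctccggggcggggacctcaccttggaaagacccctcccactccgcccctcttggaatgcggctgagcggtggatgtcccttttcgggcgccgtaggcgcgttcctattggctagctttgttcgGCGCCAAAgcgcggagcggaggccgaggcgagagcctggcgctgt
POLA1 chrX:24693668-24693967 (+ strand): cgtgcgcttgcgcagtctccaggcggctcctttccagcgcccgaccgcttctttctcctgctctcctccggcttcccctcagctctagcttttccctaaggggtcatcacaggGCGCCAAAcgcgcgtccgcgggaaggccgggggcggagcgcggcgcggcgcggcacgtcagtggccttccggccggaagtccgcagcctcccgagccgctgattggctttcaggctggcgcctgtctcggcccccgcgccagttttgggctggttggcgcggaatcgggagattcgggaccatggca
CHAF1B chr21:36385142-36385441 (+ strand): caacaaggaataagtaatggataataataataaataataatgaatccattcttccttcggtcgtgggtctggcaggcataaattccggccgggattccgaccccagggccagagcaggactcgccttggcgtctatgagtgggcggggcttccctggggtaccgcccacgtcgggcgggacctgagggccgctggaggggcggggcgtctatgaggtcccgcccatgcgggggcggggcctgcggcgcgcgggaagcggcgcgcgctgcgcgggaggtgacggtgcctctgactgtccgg
GINS3 chr16:58392221-58392520 (+ strand): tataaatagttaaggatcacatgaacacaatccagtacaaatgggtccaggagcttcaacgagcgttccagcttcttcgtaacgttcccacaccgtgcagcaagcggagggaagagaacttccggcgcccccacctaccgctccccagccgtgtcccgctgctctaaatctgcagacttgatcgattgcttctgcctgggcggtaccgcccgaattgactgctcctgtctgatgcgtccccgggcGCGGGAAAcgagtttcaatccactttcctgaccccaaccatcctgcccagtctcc
CDC6 chr17:40287629-40287928 (+ strand): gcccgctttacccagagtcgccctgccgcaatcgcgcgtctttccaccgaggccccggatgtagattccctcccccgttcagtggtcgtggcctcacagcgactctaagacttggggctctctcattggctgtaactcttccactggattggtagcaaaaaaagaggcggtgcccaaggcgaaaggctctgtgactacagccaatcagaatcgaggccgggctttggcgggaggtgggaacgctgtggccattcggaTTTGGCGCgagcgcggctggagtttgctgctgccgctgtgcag

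An E2F-type 8-mer stood in 19 of the 45 member promoters (42.2%), against 3.3% of all 35116 promoters listed and 4.1% of 22199 promoters of protein-coding genes. The pentamer CCAAT, read on both strands, stood in 27 of the 45 (60.0%), against 34.6% of all promoters. The genes were listed beforehand as E2F targets or beside them, so this share is no independent test of that label. A match is also not a bound site. In GINS1 the match lay on the opposite strand, at bases 6 to 13 after the start. In GINS3 it lay across the start, and in CDC6 at bases 8 to 15 after it, on the strand of the gene. CHAF1B had no match in this window. By gene, the 8-mer was present in 6 of 10 genes called higher, in 2 of 2 called lower and in 11 of 24 not called, so matches stood in genes of every outcome.

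The transfected gene was read first. CDKN2A had log2 levels of 12.12, 13.01 and 12.67 in p16 samples V1, V2 and V3, against 5.61, 6.43 and 6.01 in mock samples V1, V2 and V3. Its difference was 6.59 ± 0.32 (SE, adjusted p = 5.4e-05), and the labels and this gene go together in every sample. Genes next to CDKN2A that a p16 cDNA does not carry also differed. MTAP averaged 11.05 ± 0.29 in p16 samples and 2.07 ± 0.01 in mock samples (SD, n = 3 each). CDKN2B averaged 8.77 ± 0.26 in p16 samples and 2.35 ± 0.01 in mock samples, and KLHL9 averaged 11.51 ± 0.21 in p16 samples and 2.72 ± 0.01 in mock samples. In mock samples these 3 genes lay under 4, the level below which a probe set counts here as at the floor. RB1, the protein through which p16 is known to act, read 8.52, 6.83 and 7.52 in p16 samples, against 12.96, 12.78 and 13.01 in mock samples, a difference of -5.29 ± 0.44 (SE, adjusted p = 0.0004). Adding a p16 cDNA supplies none of MTAP, CDKN2B and KLHL9, so the groups differed in more than the transfected gene. Whether the p16 samples come from the same cell line as the mock samples was not tested and is in doubt. Every difference below is therefore between the samples labelled p16 and those labelled mock, and cannot be read as the effect of p16. The part that these differences play in the replication genes was not tested.

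Of the pancreatic duct markers measured, 7 of 9 fell in p16 samples and none rose, with a summed log2 level of 15.65 to 15.93 in p16 samples and 17.25 to 17.45 in mock samples, and CEACAM6 lay under 4 in every p16 sample. Among fibroblast markers COL1A2, COL3A1, DCN and PDGFRA, 4 of 7, lay under 4 in every sample. PDGFRB was too dim to test, and read 4.31, 5.65 and 3.71 in p16 samples, against 2.71, 2.19 and 2.53 in mock samples. LUM averaged 8.92 ± 0.42 in p16 samples and 2.72 ± 0.02 in mock samples. COL1A1 averaged 7.76 ± 0.27 in p16 samples and 7.89 ± 0.40 in mock samples and was not called (adjusted p = 0.75 by limma). The summed level was 9.21 to 9.89 in p16 samples and 7.91 to 8.51 in mock samples, so it did not rise through all of these markers. All 6 leukocyte and all 5 endothelial markers lay under 4 in every sample. The housekeeping genes GAPDH (15.82 ± 0.21 in p16 samples, 15.68 ± 0.12 in mock samples) and ACTB (15.94 ± 0.04 in p16 samples, 15.79 ± 0.11 in mock samples) passed no test. The first principal component held 77.8% of the variance and separated the groups, and the second held 17.9% and set both V1 samples apart from V2 and V3. The part of the duct and fibroblast markers in the results below was not tested.

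The replication genes stood higher in p16 samples more often than lower. In the fit without a block for the V number, 11 of the 42 genes rose (26.2%) and 2 fell (4.76%), while 29 were not called. Across all genes tested, 19.5% rose and 22.5% fell. The median log2 difference was 0.41 over the 42 genes and -0.03 over all genes. Positive differences were 32 of the 42, against 5678 of 11658 over all genes. Every p16 sample lay above every mock sample in 16 of the 42 genes (38.1%), against 27.3% of all genes. Every p16 sample lay below every mock sample in 4 (9.52%), against 29.1% of all genes, and the groups overlapped in 22. By limma 6 of the 13 called genes (GINS1, POLA1, CHAF1B, POLE, LIG1 and DSCC1) differed by at least 2-fold, all of them higher. No count of 2-fold differences over all genes stands beside it. The share of members that rose was thus near that of all genes, and the share that fell was the farther of the pair from it. In RNA of whole cultures, a larger share of cells that express a gene and more RNA per cell cannot be told apart.

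Fitting the V number as a block gave other counts. With it 23 of the 42 genes rose (54.8%), against 32.4% of all genes, and 6 fell (14.3%), against 35.5% of all genes. All 11 and both of the calls made without the block were among them. A further 16 genes passed only with it, and 13 passed neither fit. The difference of same-numbered samples had 1 sign in V1, V2 and V3 for 36 of the 42 genes. The same count was not made over all genes, so 36 of 42 has no background beside it. The median of that difference over the 42 genes was 0.44 in V1, 0.44 in V2 and 0.42 in V3, with 33, 31 and 29 positive differences. Over all genes the medians were -0.0, -0.0 and -0.03. Leaving out both V1 samples gave 20 genes higher and 3 lower, against 28.2% and 30.6% of all genes. Leaving out p16 V2, p16 V3 or mock V2 each left 6 of the 42 genes higher (14.3%), against 14.2%, 13.5% and 14.3% of all genes in the same fits. In those 3 fits the share of members that rose was close to that of all genes. Leaving out any 1 sample left 1 gene lower. GINS1, POLA1, CHAF1B, POLE, LIG1, DSCC1 and GINS3 were called with every single sample left out. The calls of CDC6, MCM3, POLE2, RFC4, RRM1 and TK1 ended with p16 V2 left out and with p16 V3 left out, and also with mock V2 left out. That of CDC6 ended with any other sample left out too, that of POLE2 with either V1 sample, that of RFC4 with p16 V1 or mock V3, and those of MCM3 and TK1 with mock V3.

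**Figure D1:**
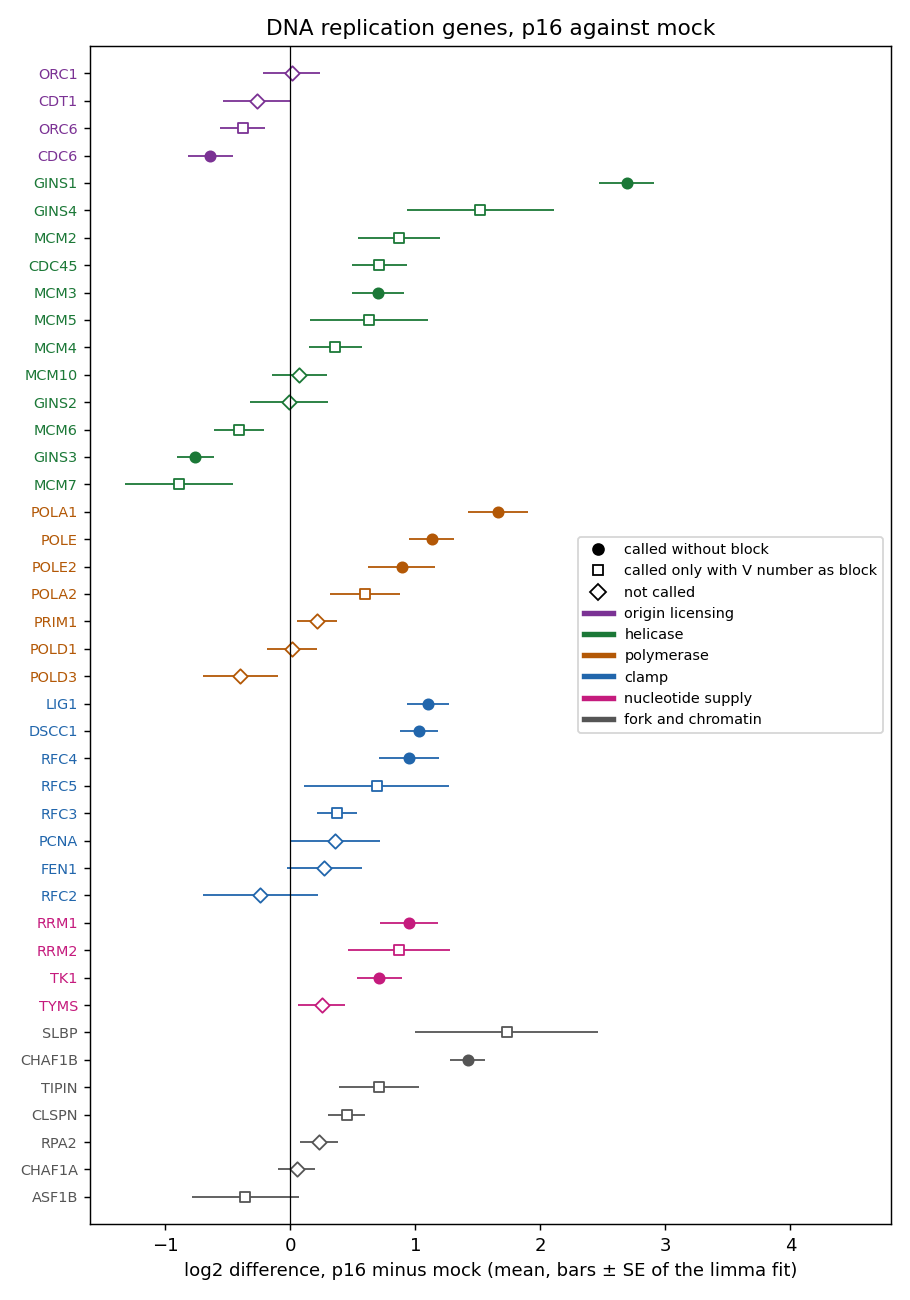
Log2 difference, p16 minus mock, of the 42 replication genes (x axis, points with bars of ± SE, 3 samples a group), grouped by role down the page. GINS1 lies farthest to the right at 2.69, and filled circles mark the 13 genes called without a block.

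**Figure D2:**
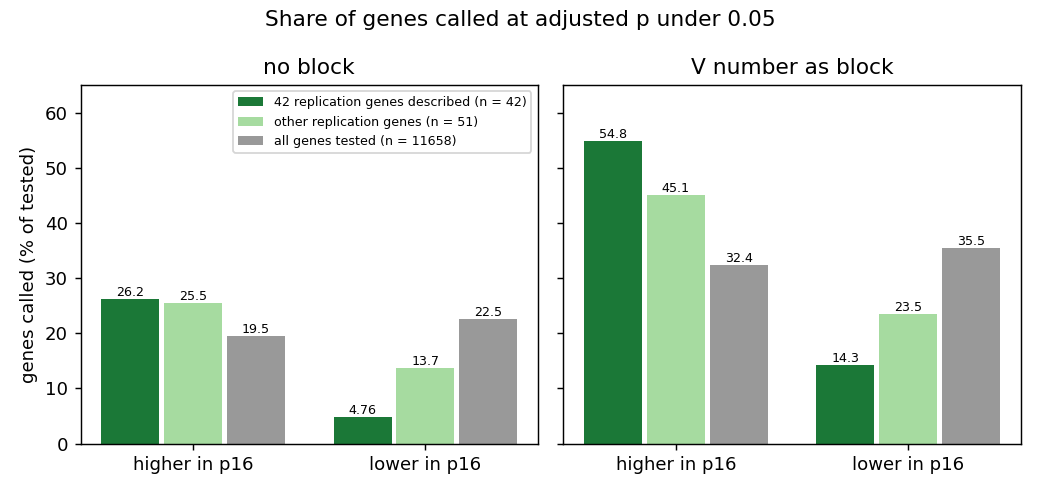
Percent of genes called higher or lower in p16 samples (bars from 0) for the 42 replication genes, 51 other replication genes and 11658 genes, without a block on the left and with the V number as a block on the right. Without the block 26.2% of the 42 genes were higher and 4.76% lower.

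The origin licensing genes were the role without a rise. Of ORC1, ORC6, CDC6 and CDT1, 1 fell and none rose (2 and 0 with the block), and their median difference was -0.32. Among all genes 22.5% fell and 19.5% rose, and with the block 35.5% fell and 32.4% rose. Whether this role differs from all genes was not tested, and 4 genes are too few to tell it from that background. CDC6, the ATPase that brings MCM rings to the origin recognition complex, read 10.42, 10.84 and 10.73 in p16 samples, against 11.26, 11.37 and 11.28 in mock samples. All 3 p16 samples lay below all 3 mock samples, with a difference of -0.64 ± 0.18 (SE, adjusted p = 0.034). The other CDC6 probe set also fell, by 0.67 (adjusted p = 0.035). ORC6, a subunit of the origin recognition complex, read 11.04, 11.13 and 11.30 in p16 samples, against 11.34, 11.51 and 11.76 in mock samples. These groups did not overlap either, and the difference of -0.38 passed with the block (adjusted p = 0.036) and not without it (adjusted p = 0.16). ORC1, the large subunit of that complex, averaged 7.84 ± 0.16 in p16 samples and 7.83 ± 0.36 in mock samples (SD, n = 3 each). CDT1, the partner of CDC6 in loading MCM, averaged 10.48 ± 0.17 in p16 samples and 10.74 ± 0.46 in mock samples, and neither fit called it (adjusted p = 0.5 without the block). Its second probe set had a larger difference, -1.27 ± 0.48 (SE), that passed with the block (adjusted p = 0.0019) and not without it (adjusted p = 0.089).

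The helicase genes moved both ways. GINS1 and MCM3 rose (16.7%), GINS3 fell (8.33%) and 9 of the 12 passed no test without the block. Of all genes 19.5% rose and 22.5% fell. With the block 7 were higher and 3 lower, and the median difference was 0.50. GINS1, GINS2, GINS3 and GINS4 encode the 4 subunits of 1 complex that joins MCM and CDC45 in the active helicase, and their RNA did not move alike. GINS1 read 12.86, 12.65 and 12.66 in p16 samples, against 10.32, 9.67 and 10.10 in mock samples. Its level was 6.47-fold higher in p16 samples, with a log2 difference of 2.69 ± 0.22 (SE, adjusted p = 0.00038). The gap between the groups exceeded the spread within either several times over. GINS3 read 9.60, 9.39 and 9.50 in p16 samples, against 10.24, 10.24 and 10.29 in mock samples. It was 1.69-fold lower, a difference of -0.76 ± 0.15 (SE, adjusted p = 0.011), and its second probe set had -0.57 (adjusted p = 0.11, and 0.01 with the block). GINS4 read 7.41, 8.96 and 9.56 in p16 samples, against 6.67, 7.18 and 7.51 in mock samples. Its groups overlapped, because p16 V1 stood under mock V3, and its difference of 1.52 ± 0.59 (SE) passed with the block only (adjusted p = 0.01, and 0.094 without it). GINS2 averaged 10.87 ± 0.30 in p16 samples and 10.88 ± 0.48 in mock samples (SD, n = 3 each), a difference of -0.01.

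The MCM2 to MCM7 proteins form the hexameric ring of the helicase, each present once. MCM3 read 11.73, 12.20 and 11.97 in p16 samples, against 11.51, 11.29 and 11.01 in mock samples. It rose by 0.70 ± 0.21 (SE, adjusted p = 0.0496), a call just inside the threshold. MCM2 read 13.15, 12.56 and 12.59 in p16 samples, against 12.49, 11.52 and 11.67 in mock samples. The groups did not overlap, and its difference of 0.87 passed with the block only (adjusted p = 0.0047, and 0.088 without it). MCM5 read 12.17, 11.34 and 10.95 in p16 samples, against 11.66, 10.41 and 10.50 in mock samples. In both groups V1 was the highest, the groups overlapped, and the difference of 0.63 passed with the block only (adjusted p = 0.019, and 0.35 without it). MCM4 read 10.90, 11.37 and 11.39 in p16 samples, against 10.64, 10.95 and 10.98 in mock samples. Its difference was 0.36 (adjusted p = 0.042 with the block, and 0.24 without it), and its 4 tested probe sets were all positive.

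MCM6 and MCM7 lay on the other side. MCM7 read 13.09, 12.34 and 12.17 in p16 samples, against 14.20, 13.14 and 12.94 in mock samples. Each p16 sample was below the mock sample of the same number while the groups overlapped, and its difference of -0.89 passed with the block only (adjusted p = 0.0043, and 0.16 without it). A second MCM7 probe set read 12.09, 12.29 and 11.96 in p16 samples, against 13.41, 13.09 and 12.72 in mock samples. There the groups did not overlap and the probe set fell by 0.96 ± 0.23 (SE, adjusted p = 0.022). MCM6 read 11.97, 12.25 and 12.45 in p16 samples, against 12.46, 12.60 and 12.85 in mock samples. All 3 p16 samples lay below, if only just, and the difference of -0.41 passed with the block only (adjusted p = 0.028, and 0.17 without it). The ring subunits thus split, with MCM2, MCM3, MCM4 and MCM5 on the higher side and MCM6 and MCM7 on the lower.

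CDC45, which binds the MCM ring together with GINS, read 9.23, 9.82 and 9.78 in p16 samples, against 8.73, 8.98 and 8.99 in mock samples. The groups did not overlap, and the difference of 0.71 ± 0.22 (SE) missed the threshold narrowly without the block (adjusted p = 0.051) and passed with it (adjusted p = 0.0084). MCM10, a scaffold needed to start unwinding, averaged 10.68 ± 0.02 in p16 samples and 10.62 ± 0.36 in mock samples (SD, n = 3 each) on its brightest probe set. Another of its probe sets rose by 0.81 ± 0.25 (SE, adjusted p = 0.049), so the MCM10 probe sets gave different calls.

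**Figure D3:**
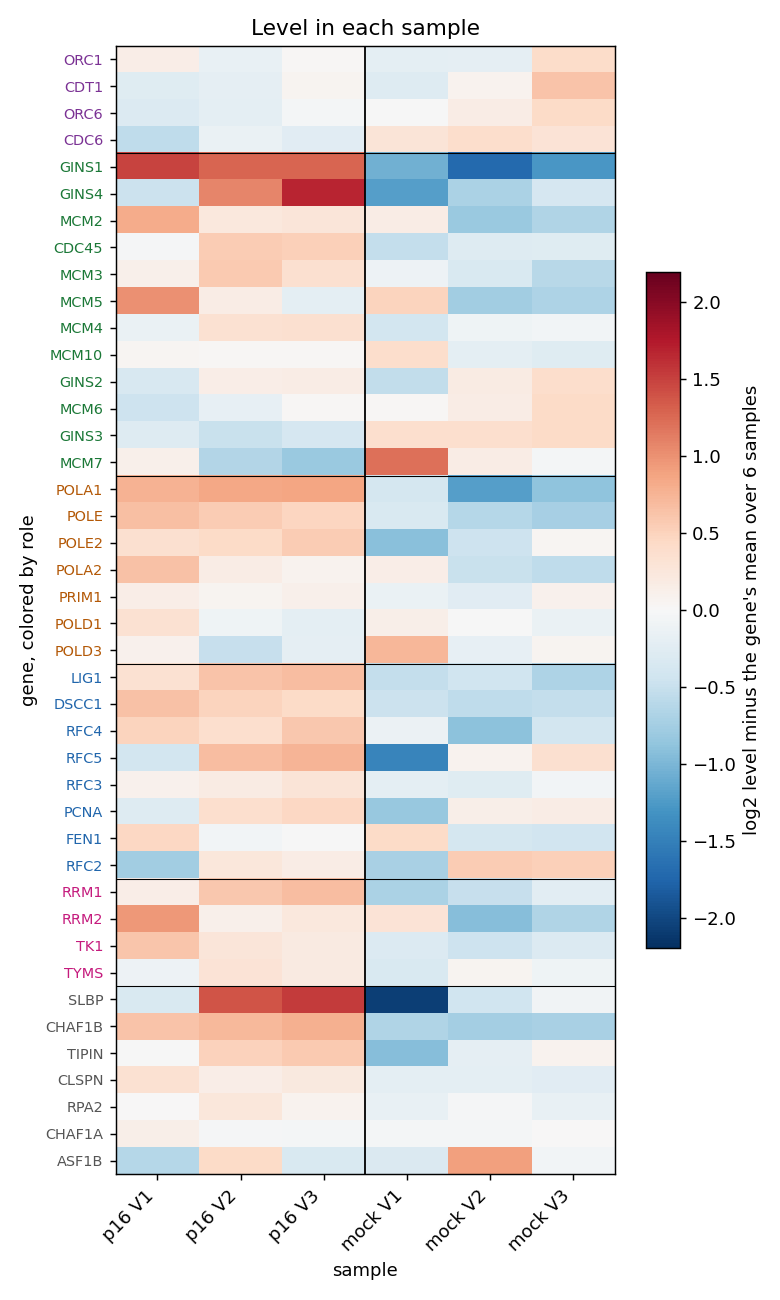
Log2 level minus the mean over 6 samples of each of the 42 replication genes (rows, grouped by role), in the p16 samples on the left and the mock samples on the right. GINS1 lies above its mean in all 3 p16 samples and below it in all 3 mock samples, and CDC6 and GINS3 show the opposite order.

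Among the polymerase genes 3 of 7 rose (42.9%) and none fell, against 19.5% and 22.5% of all genes. With the block 4 rose (57.1%) and none fell, against 32.4% and 35.5% of all genes. The median difference was 0.60. POLA1, the catalytic subunit of the polymerase that extends the RNA primer, read 10.12, 10.19 and 10.21 in p16 samples, against 8.96, 8.13 and 8.47 in mock samples. It was 3.15-fold higher in p16 samples, a difference of 1.66 ± 0.24 (SE, adjusted p = 0.0037). POLE, the catalytic subunit of the leading-strand polymerase, read 8.95, 8.84 and 8.75 in p16 samples, against 7.95, 7.65 and 7.55 in mock samples. Its groups did not overlap, with a 2.2-fold higher level and a difference of 1.13 ± 0.18 (SE, adjusted p = 0.0047). POLE2, the second subunit of that polymerase, read 10.07, 10.13 and 10.28 in p16 samples, against 8.79, 9.26 and 9.75 in mock samples. It rose by 0.89 ± 0.27 (SE, adjusted p = 0.0492), again close to the threshold.

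The other polymerase genes moved less. POLA2, the second subunit of the POLA1 enzyme, read 11.46, 10.98 and 10.89 in p16 samples, against 10.96, 10.31 and 10.25 in mock samples. The lowest p16 sample, V3, stood just under mock V1, and the difference of 0.60 passed with the block only (adjusted p = 0.0094, and 0.15 without it). PRIM1, the catalytic primase subunit, averaged 11.23 ± 0.05 in p16 samples and 11.02 ± 0.18 in mock samples (SD, n = 3 each). POLD1, the catalytic subunit of the lagging-strand polymerase, averaged 9.88 ± 0.29 in p16 samples and 9.87 ± 0.13 in mock samples. POLD3, an accessory subunit of the same enzyme, averaged 9.92 ± 0.29 in p16 samples and 10.33 ± 0.46 in mock samples (adjusted p = 0.34, and 0.051 with the block). Neither fit called PRIM1, POLD1 or POLD3. Among the other subunits of these enzymes, which are not members, POLD2 rose by 0.82 (adjusted p = 0.013), POLD4 fell by 2.38 (adjusted p = 0.03), and neither POLE3 (difference -0.22, adjusted p = 0.42) nor POLE4 (difference 0.86, adjusted p = 0.17, and 0.0052 with the block) was called without the block.

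Of the clamp and joining genes 3 of 8 rose (37.5%) and none fell, against 19.5% and 22.5% of all genes. Fitted with the block, 5 rose (62.5%) and none fell, against 32.4% and 35.5% of all genes. The median difference was 0.53. LIG1, the ligase that seals Okazaki fragments, read 9.06, 9.35 and 9.41 in p16 samples, against 8.20, 8.28 and 8.05 in mock samples. It was 2.14-fold higher in p16 samples, a difference of 1.10 ± 0.17 (SE, adjusted p = 0.0049). DSCC1, a subunit of an alternative clamp loader that works with sister chromatid cohesion, read 10.68, 10.52 and 10.46 in p16 samples, against 9.57, 9.47 and 9.52 in mock samples. Samples within a group differed by little beside the gap between the groups, and the level was 2.04-fold higher, a difference of 1.03 ± 0.15 (SE, adjusted p = 0.0036). RFC4, a subunit of the loader that opens PCNA, read 12.93, 12.81 and 13.03 in p16 samples, against 12.32, 11.54 and 12.04 in mock samples. It rose by 0.95 ± 0.24 (SE, adjusted p = 0.026) with no overlap between the groups.

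RFC2, RFC3 and RFC5 are the other small loader subunits. RFC3 read 11.40, 11.49 and 11.60 in p16 samples, against 11.09, 11.04 and 11.25 in mock samples. Its groups did not overlap, and the difference of 0.37 passed with the block only (adjusted p = 0.039, and 0.12 without it). On the second RFC3 probe set the groups overlapped and V1 differed by -0.56. Its difference of 0.31 passed neither fit (adjusted p = 0.79, and 0.42 with the block). RFC5 read 11.23, 12.31 and 12.38 in p16 samples, against 10.17, 11.70 and 11.99 in mock samples. Its V1 samples were the lowest of both groups, and the difference of 0.69 passed with the block only (adjusted p = 0.022, and 0.41 without it). A second RFC5 probe set read 12.22, 11.83 and 11.91 in p16 samples, against 10.94, 10.68 and 10.94 in mock samples. That one rose by 1.13 ± 0.18 (SE, adjusted p = 0.0053). RFC2 averaged 10.45 ± 0.56 in p16 samples and 10.69 ± 0.73 in mock samples (SD, n = 3 each), and neither fit called it. PCNA, the clamp itself, averaged 14.46 ± 0.40 in p16 samples and 14.09 ± 0.56 in mock samples (adjusted p = 0.48, and 0.056 with the block). FEN1, which trims the flap of an Okazaki fragment, averaged 13.42 ± 0.29 in p16 samples and 13.15 ± 0.48 in mock samples (adjusted p = 0.54, and 0.13 with the block). PCNA and FEN1 thus passed neither fit.

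In nucleotide supply 2 of 4 genes rose and none fell, against 19.5% and 22.5% of all genes. With the block 3 rose and none fell, against 32.4% and 35.5% of all genes. The median difference, 0.79, was the highest of the 6 roles. No gene of this role was called with p16 V2, p16 V3 or mock V2 left out. Whether this role differs from all genes was not tested. RRM1, the large subunit of ribonucleotide reductase, read 13.41, 13.86 and 13.94 in p16 samples, against 12.57, 12.75 and 13.03 in mock samples. It was 1.93-fold higher in p16 samples, a difference of 0.95 ± 0.23 (SE, adjusted p = 0.021). On the second RRM1 probe set the groups overlapped, with a difference of 1.38 (adjusted p = 0.23, and 0.0038 with the block). TK1, which salvages thymidine, read 12.47, 12.12 and 12.05 in p16 samples, against 11.55, 11.41 and 11.55 in mock samples. It rose by 0.71 ± 0.18 (SE, adjusted p = 0.026) without overlap between the groups. On its second probe set the groups overlapped, with a difference of 0.62 (adjusted p = 0.3, and 0.0085 with the block). RRM2, the small subunit that is made in S phase, read 14.74, 13.90 and 14.01 in p16 samples, against 14.08, 12.84 and 13.12 in mock samples. The mock V1 sample stood above 2 p16 samples, and the difference of 0.87 passed with the block only (adjusted p = 0.0049, and 0.15 without it). A second RRM2 probe set read 13.74, 13.92 and 13.90 in p16 samples, against 12.18, 12.13 and 12.28 in mock samples. On it the groups lay far apart, with a rise of 1.65 ± 0.15 (SE, adjusted p = 0.00057). TYMS, thymidylate synthase, averaged 14.79 ± 0.21 in p16 samples and 14.54 ± 0.19 in mock samples, and neither fit called it (adjusted p = 0.36, and 0.098 with the block).

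Of the fork and chromatin genes 1 of 7 rose (14.3%) and none fell without the block, against 19.5% and 22.5% of all genes. With it 4 rose (57.1%) and 1 fell (14.3%), against 32.4% and 35.5% of all genes. The median difference was 0.45. CHAF1B, a subunit of the chaperone that deposits histones behind the fork, read 8.32, 8.41 and 8.48 in p16 samples, against 7.03, 6.94 and 6.99 in mock samples. It was 2.67-fold higher in p16 samples, a difference of 1.42 ± 0.14 (SE, adjusted p = 0.00091). CHAF1A, the large subunit of the same chaperone, averaged 9.96 ± 0.10 in p16 samples and 9.91 ± 0.03 in mock samples (SD, n = 3 each), a difference of 0.05 (adjusted p = 0.84). SLBP, the histone mRNA binding protein, read 11.14, 12.86 and 13.00 in p16 samples, against 9.39, 11.03 and 11.39 in mock samples. In each V number the p16 sample was the higher, by 1.75, 1.83 and 1.62, yet p16 V1 stood under mock V3. The SLBP difference of 1.73 ± 0.73 (SE) passed with the block (adjusted p = 0.00051) and not without it (adjusted p = 0.12).

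TIPIN, part of the complex that steadies stalled forks, read 10.54, 11.05 and 11.12 in p16 samples, against 9.62, 10.35 and 10.62 in mock samples. CLSPN, the checkpoint adaptor that travels with the fork, read 6.75, 6.57 and 6.63 in p16 samples, against 6.21, 6.21 and 6.17 in mock samples. With the block both passed (adjusted p = 0.01 for TIPIN and 0.023 for CLSPN), and without it neither did (adjusted p = 0.14 and 0.056). A dimmer CLSPN probe set read 5.26, 4.57 and 4.72 in p16 samples, against 4.07, 3.71 and 3.57 in mock samples, of which 2 lay under 4. It rose by 1.07 (adjusted p = 0.021), a difference that rests on levels near the floor. ASF1B, which hands histones to the CHAF1 chaperone, read 9.37, 10.42 and 9.65 in p16 samples, against 9.68, 10.90 and 9.93 in mock samples. It was lower in each V number, its groups overlapped, and its difference of -0.36 passed with the block only (adjusted p = 0.048, and 0.57 without it). RPA2, a subunit of the protein that coats single-stranded DNA, averaged 10.77 ± 0.12 in p16 samples and 10.54 ± 0.08 in mock samples, and neither fit called it, although the groups did not overlap.

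The V1 samples stood apart in some members in both groups alike. Of the 70 tested member probe sets, 8 were lower in V1 by at least 1 than the mean of V2 and V3 in p16 and in mock samples. These were probe sets of MCM4, RFC2, RFC3, RRM1, TYMS and SLBP and 2 of RFC5. Both MCM5 probe sets were higher by at least 1 in both groups, and none moved by that much in opposite directions. For the MCM4 probe set the V1 difference was -3.97 in p16 samples and -3.41 in mock samples. Among all 24406 tested probe sets 16.4% moved by at least 1 alike in both groups, against 14.3% of the member probe sets. The sign was shared by 80.0% of member probe sets and 80.4% of all, so the members followed the V1 shift about as other probe sets did.

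**Figure D4:**
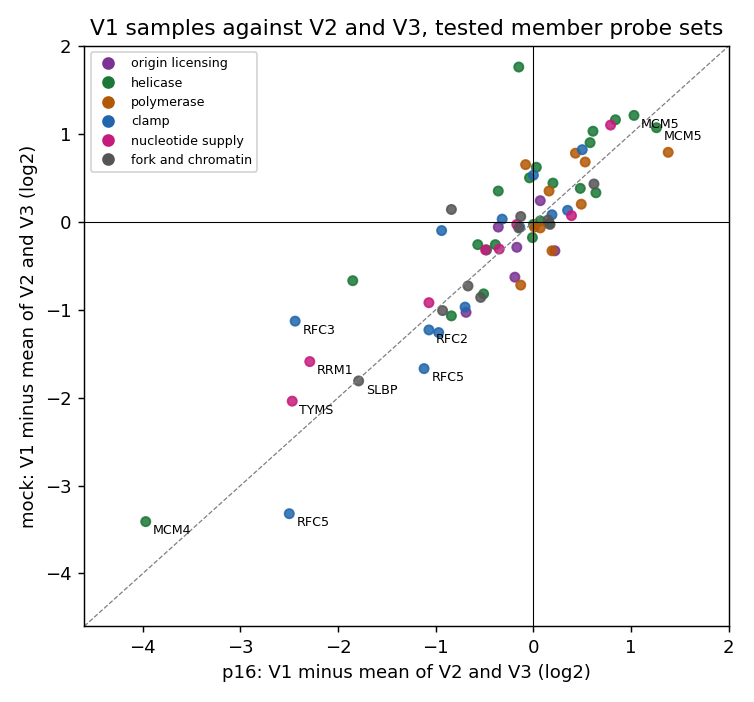
V1 minus the mean of V2 and V3 on the log2 scale, in p16 samples (x axis) and mock samples (y axis), for the 70 tested member probe sets, with the dashed line marking equal values. MCM4 lies at the lower left with -3.97 and -3.41, and the 8 lower and 2 higher probe sets that moved by at least 1 in both groups are named.

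Probe sets of 1 gene did not always give 1 call. The members had 80 probe sets, of which 10 were too dim to test. Of the 70 tested, 15 rose and 4 fell, against 17.5% and 19.7% of all tested probe sets. Of 21 members with more than 1 tested probe set, 8 had probe sets with different calls, 0 had calls in both directions, and 19 had differences of 1 sign only. Counting any probe set, 18 members had a call, where the brightest probe set gave 13.

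Of 53 other replication genes listed, 51 were tested, of which 13 rose (25.5%) and 7 fell (13.7%), against 19.5% and 22.5% of all genes. Their median difference was 0.32. With the V number as a block 23 rose (45.1%) and 12 fell (23.5%), against 32.4% and 35.5% of all genes. The share that fell was 4.76% among the 42 genes without the block and 14.3% with it, and its difference from that of the other replication genes was not tested. MCM9, a relative of the MCM ring proteins that works in recombination, rose by 2.53 (adjusted p = 0.015). DCK, which salvages deoxycytidine, averaged 11.10 ± 0.23 in p16 samples and 9.01 ± 0.05 in mock samples (SD, n = 3 each), a rise of 2.09 (adjusted p = 0.00047). PRIM2, the partner of PRIM1, rose by 2.04 (adjusted p = 0.0077). CTPS1, which makes CTP, rose by 1.98 (adjusted p = 0.011), and GMNN, the inhibitor of CDT1, by 1.87 (adjusted p = 0.0021). Those genes rose more than any member but GINS1. POLD4, the smallest subunit of the lagging-strand polymerase, averaged 7.33 ± 0.74 in p16 samples and 9.71 ± 1.02 in mock samples, and fell by 2.38 (adjusted p = 0.03). RNASEH2B fell by 1.39 (adjusted p = 0.005), ORC2 by 1.20 (adjusted p = 0.041), TOP1 by 0.93 (adjusted p = 0.027) and SSRP1 by 0.69 (adjusted p = 0.037). RNASEH2B helps remove RNA from DNA, ORC2 is an origin recognition subunit, TOP1 relaxes supercoils ahead of the fork and SSRP1 belongs to a histone chaperone.

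Of 20 pocket protein, E2F and partner genes tested, 7 rose (35.0%) and 3 fell (15.0%), against 19.5% and 22.5% of all genes. With the block 9 of the 20 rose and 4 fell, against 32.4% and 35.5% of all genes. Their median difference was 0.38, against -0.03 over all genes. Whether this list differs from all genes was not tested. E2F1, the activator named most often for these targets, read 9.80, 9.33 and 9.31 in p16 samples, against 9.46, 8.94 and 8.53 in mock samples. Its difference of 0.50 passed with the block (adjusted p = 0.034) and not without it (adjusted p = 0.24). E2F5, a repressor partner of the pocket proteins, rose by 3.33 (adjusted p = 0.00031), E2F7, a repressor that is itself an E2F target, by 2.42 (adjusted p = 0.023), and CCNE2, a cyclin that activates CDK2, by 2.19 (adjusted p = 0.0016). Beside RB1, E2F2 fell by 1.36 (adjusted p = 0.0062) and RBL2, a relative of RB1, by 1.28 (adjusted p = 0.0053). CDK6 rose by 0.97 (adjusted p = 0.047), while CDK4 had a difference of 0.37 (adjusted p = 0.42, and 0.036 with the block). Of the pocket proteins RB1 and RBL2 fell and RBL1 was not called (difference 0.39, adjusted p = 0.77).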

How the data were processed

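RNA of 3 p16 and 3 mock samples had been hybridised to 1-colour arrays. The deposited values are log2 levels, to which the authors had applied GCRMA (version not given), per the submitters' processing notes. GCRMA models nonspecific binding from the letters of each probe and removes it, so that dim probe sets gather at a floor and differences against that floor depend on it. The column medians were 3.11 to 3.18, with no centring. Precision is limited by the number of arrays.

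Of 54675 probe sets, 62 controls were left out. GEO's platform annotation gave 1 gene for 41091 probe sets, several for 1801 and none for 11721. Probe sets with log2 of at least 4 in at least 3 of 6 samples were tested (24406). limma 3.58.1 in R 4.3.3 (lmFit, eBayes, two-sided, Benjamini-Hochberg over all tested probe sets, threshold 0.05) compared p16 with mock samples without a block. The method was tested on simulated data with independent samples, which lack the deviations that same-numbered samples share here. The brightest tested probe set stands for a gene. Members called in either fit are given in every sample, others by mean and SD. Of the other replication genes, up to 5 called genes a direction are named, and of the regulators RB1, E2F1, CDK4, CDK6 and up to 3 called genes a direction. The members and lists were chosen with earlier results of these data known.

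The V numbers were taken to pair samples. Deviations from group means correlated at 0.814, 0.751 and 0.669 between same-numbered samples, all above 0.1. V2 and V3 of different groups also correlated, at 0.422 and 0.513, and V1 correlated with them at -0.737 to -0.624. The cross-numbered V2 and V3 values pass the 0.1 rule too, so that rule cannot tell which of V2 and V3 are partners. The counts of the blocked fit rest on the pairing taken. The blocked value is printed where it changes a call. Since the labels do not name separate cultures, the spread behind each p-value may be technical. Alternatives covered the filter, normalization, variance model, floor, probe set rule, block and left-out samples. Promoters came from RefSeq (GRCh38.p14).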

Additional observations from a re-analysis of the deposited data

How the results depend on the processing

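All 7 of CHAF1B, DSCC1, GINS1, GINS3, LIG1, POLA1 and POLE were called in the same direction under all 16 alternatives. Of the other 6 called members, RRM1 and TK1 lost the call in 4 alternatives each, RFC4 in 6, CDC6 in 7, MCM3 in 8 and POLE2 in 10. With the V number as replicate block, 23 members were higher and 6 lower, and 34 member probe sets were higher and 11 lower. In that fit 23 other replication genes were higher and 12 lower. It called 2 licensing, 10 helicase, 5 clamp and 5 fork and chromatin members. Of all genes 32.4% rose and 35.5% fell in it. Without both V1 samples, 20 members and 31 member probe sets were higher, and 9 helicase and 4 fork and chromatin members were called. Of all genes 28.2% rose and 30.6% fell without them. Leaving out each sample in turn (leave-one-out) gave 6 to 13 members higher (14.3% to 31.0%, against 13.5% to 20.3% of all genes) and 1 lower each time (2.38%, against 16.4% to 22.1% of all genes), 8 to 17 member probe sets higher and 1 to 3 lower, and 6 to 12 other replication genes higher and 1 to 3 lower. The same gave 0 licensing, 2 to 5 helicase, 0 to 3 nucleotide supply and 1 to 2 fork and chromatin members called, and a median difference of 0.38 to 0.44. Columns centred on their median gave 1 member, 2 member probe sets and 4 other replication genes lower, 0 licensing members called and a median of 0.47. With no filter on low values, 3 other replication genes were lower and 2 fork and chromatin members were called. Quantile normalization gave 2 fork and chromatin members and a median of 0.45, and the median over probe sets gave 6 helicase members, 2 fork and chromatin members and a median of 0.54. The share of all genes called moved with the setting too, from 9.45% to 32.4% higher and from 10.9% to 35.5% lower. The cause of these changes was not tested.

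Differences that changed sign belonged to members that were not called without the block. Of these, ASF1B was called lower with the block (adjusted p = 0.048 by limma). ORC1 had -0.17 without both V1 samples and -0.10 to 0.22 with single samples left out. GINS2 had 0.05 with centred columns and 0.05 with the median over probe sets, and -0.29 to 0.17 with single samples left out. POLD1 had -0.01 with quantile normalization, -0.09 without both V1 samples and -0.15 to 0.12 with single samples left out. CHAF1A had -0.02 without both V1 samples and -0.01 to 0.08 with single samples left out. With single samples left out, MCM10 had -0.05 to 0.27, RFC2 -0.66 to 0.09 and ASF1B -0.66 to 0.01. Signal over background limits 10 member probe sets, which were too dim to test.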
